A study of Mus musculus with 3 samples.

Results

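The genes described are 10 inflammasome and pyroptosis genes, chosen by name from a table of 54532 genes: the sensors Nlrp3, Aim2 and Nlrc4, the adaptor Pycard, the inflammatory caspases Casp1 and Casp4, the gasdermins Gsdmd and Gsdme, and the cytokines Il1b and Il18. All 10 were found in the table, each with 1 entry annotated as protein-coding. Their RNA was measured in the hippocampus of C57BL/6 mice aged 10 months, with 1 RNA-seq library for each of 3 genotypes. The genotypes were WT, PS19, and PS19 with the genotype label Zbp1+-, read here as loss of 1 allele of the nucleic acid sensor gene Zbp1. PS19 mice carry a mutant human tau transgene under the mouse prion protein promoter and serve as a model of tau pathology. This transgene is shared by both PS19 libraries. The comparisons ask how the genes differ between PS19 and WT, and how they stand when Zbp1 dosage is lowered. The labels do not say whether a library came from 1 animal or a pool. No difference below has a replicate check, no test of the genotypes was possible, and every value describes these 3 libraries.

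An inflammasome is a protein complex in which a sensor recruits the adaptor ASC, the product of Pycard, and through it activates caspase-1. Caspase-1 then cleaves the precursors of interleukin-1 beta and interleukin-18 and cuts gasdermin D, whose freed part opens pores in the plasma membrane and causes the lytic death called pyroptosis. In the brain this pathway is known mainly from microglia, the resident macrophages. Assembly and cleavage take place on proteins, so RNA levels show how much of the parts is transcribed and not whether the complex was active.

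Recovered whole reads summed to between 16400328 and 17109734 per library, and the implied library sizes lay between 15826984 and 17287957 reads. The PS19 Zbp1+- library held both the highest sum, 17109734, and the smallest implied size, 15826984. Ratios of reads below divide by the implied size. Those of PS19 Zbp1+- over another library are therefore higher than total reads would give. Their intervals hold for the implied size only. Zbp1 had 5 reads in WT, against 91 in PS19 and 0 in PS19 Zbp1+-. A floor of 3 reads allows that last library an FPKM of up to 0.0537, and the exact 95% interval reaches 0.0660. These reads do not settle the label, since 1 allele at the level of WT could give none and 1 allele at the level of PS19 would give many. Xist had 11062, 13350 and 0 reads in the same order, and the Y-linked gene Ddx3y had 0, 0 and 711, so that genotype and sex cannot be told apart in any comparison of PS19 Zbp1+-. All 8 hippocampus markers were detected in each library. The choroid plexus markers, a tissue next to the hippocampus, summed to an FPKM of 3139 in WT, against 1924 in PS19 and 10.8 in PS19 Zbp1+-. Weak genes were also missed more often in PS19 Zbp1+-. Of 357 genes with 8 to 12 reads in both other libraries, 57 (16.0%) had none there, with an exact 95% interval of 12.3% to 20.2%. The same share was 2.14% where WT was the library tested and 0.410% where PS19 was.

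Levels are given as FPKM, fragments counted on a gene, divided by the gene's length in kilobases and by library size. Il18 was the most abundant of the 10 genes in every library, at an FPKM of 13.2 in WT, against 13.3 in PS19 and 11.4 in PS19 Zbp1+-. The other 9 genes lay below an FPKM of 3.2 throughout. Casp4, Nlrc4 and Il1b stayed below an FPKM of 1 in all 3 libraries and did not enter the counts of genes called. A pair of libraries was compared by reads only where it held at least 20 reads of a gene together, which gave 26 read ratios. Il1b reached that minimum in none of the 3 comparisons, and Casp4 missed it between PS19 Zbp1+- and WT. These are the genes too weakly expressed to compare. Below Il18, the order of the genes differed between libraries: Casp1 ranked 2 in WT and 7 in PS19, and Gsdmd ranked 4 in WT and 2 in PS19. In WT, Casp1 (FPKM 1.82), Gsdme (1.56) and Gsdmd (1.41) did not differ beyond their counting intervals.

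**Figure D1:**
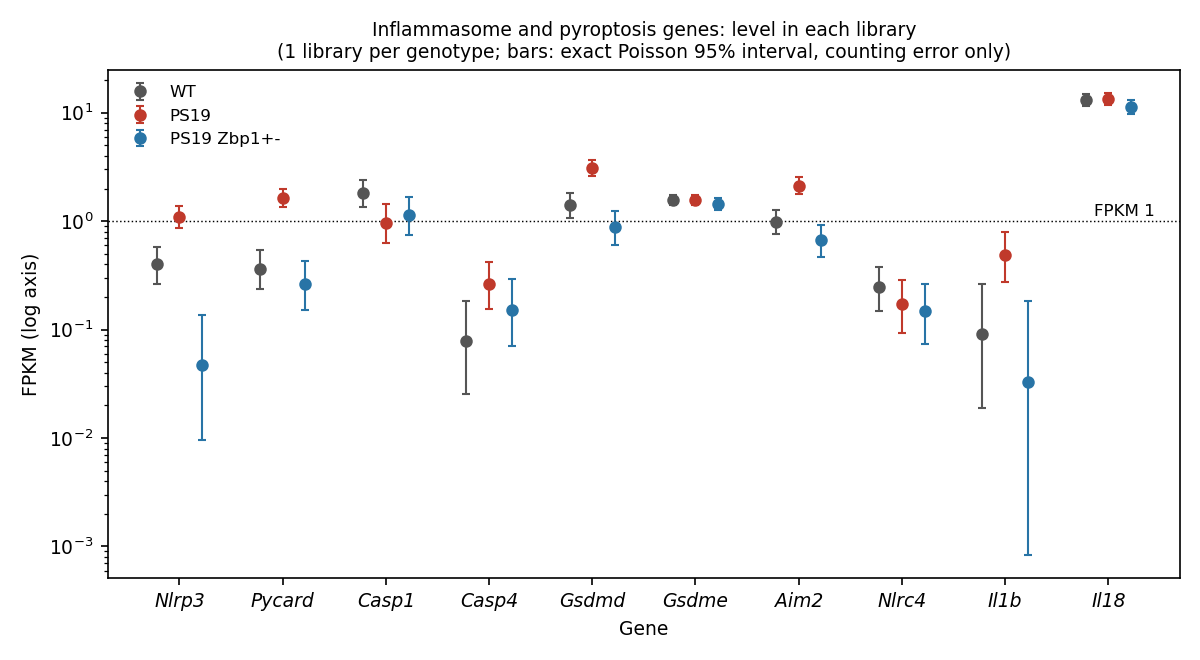
FPKM (log axis) of the 10 genes in the WT, PS19 and PS19 Zbp1+- libraries; points are single libraries and bars are exact Poisson 95% intervals that cover counting error only. Nlrp3, Pycard, Gsdmd and Aim2 are highest in PS19 with intervals clear of both other libraries, while Gsdme and Il18 lie level.

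The adaptor gene Pycard and the sensor genes Nlrp3 and Aim2 were higher in the PS19 library than in both others, by 2.15-fold to 4.49-fold against WT. The executor gene Gsdmd followed the same order, at 2.20-fold. Casp1, the protease that the sensors and ASC activate, was lower in PS19 than in WT, and the cytokine gene Il18 and the gasdermin gene Gsdme were level. In PS19 Zbp1+-, Pycard, Nlrp3, Aim2 and Gsdmd were each at least 3.19-fold lower than in PS19.

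Pycard (ENSMUSG00000030793, chromosome 7, 127989708 to 127993867, minus strand, GRCm38) had 24 reads in WT, against 108 in PS19 and 16 in PS19 Zbp1+-, or FPKM values of 0.366, 1.64 and 0.266. Only the PS19 library was high, and WT and PS19 Zbp1+- lay close together. The read ratio of PS19 over WT was 4.49 (exact 95% interval 2.87 to 7.31), the largest of the 9 members with enough reads. PS19 Zbp1+- was 6.18-fold below PS19 (3.64 to 11.2), and its ratio to WT of 0.727 had an interval that spans 1 (0.361 to 1.43). ASC, its product, joins a sensor to caspase-1 through a pyrin and a CARD domain. Of the exon bases of Pycard, 12.8% overlap Gm45205 on the other strand, which had 1, 2 and 12 reads (WT, PS19 and PS19 Zbp1+-).

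Nlrp3 (ENSMUSG00000032691, chromosome 11, 59541568 to 59566956) had 28 reads in WT, against 77 in PS19 and 3 in PS19 Zbp1+-, with FPKM values of 0.400, 1.10 and 0.0467. Its product senses loss of cell potassium and many forms of membrane or organelle stress. The 3 libraries stood apart, with PS19 highest and PS19 Zbp1+- lowest. PS19 was 2.74-fold above WT (1.76 to 4.39). The ratio of PS19 Zbp1+- was 0.0426 to PS19 (0.00859 to 0.129) and 0.117 to WT (0.0227 to 0.378), both resting on 3 reads. Nlrp3 was the only member with enough reads that lay at least 2-fold below WT in PS19 Zbp1+-. Of 105 protein-coding genes with 20 to 40 reads in WT and 60 to 100 in PS19, 3 genes, or 2.86% (0.593% to 8.12%), had at most 3 reads in PS19 Zbp1+-. The median of the 105 genes there was 27.0 reads. These read ranges hold the reads of Nlrp3, which is itself among the 105 genes and among the 3, so the share is a description only.

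Aim2 (ENSMUSG00000037860, chromosome 1, 173350879 to 173466040), whose product binds double-stranded DNA in the cytosol, had 60 reads in WT, against 129 in PS19 and 37 in PS19 Zbp1+-. The FPKM values were 0.993, 2.13 and 0.668, again with PS19 alone high. PS19 was 2.15-fold above WT (1.57 to 2.97) and PS19 Zbp1+- 3.19-fold below PS19 (2.20 to 4.73). Its ratio of 0.672 to WT had an interval just reaching past 1 (0.434 to 1.03) on implied library sizes. Nlrc4 (chromosome 17, 74425438 to 74459142), the sensor that acts with the Naip proteins on bacterial flagellin and secretion system parts, had 20, 14 and 11 reads (WT, PS19 and PS19 Zbp1+-). Its PS19 over WT ratio was 0.699 (0.326 to 1.45), so that a difference was not detectable at this depth.

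The stretches upstream of the RefSeq start are shown for Pycard, Aim2 and Nlrp3, which shared the order of libraries, and for Il18, which was level (GRCm38.p6, 5′ to 3′ on the gene's strand, trimmed of bases that GENCODE annotates as exon of the gene next to that start). For Aim2 the RefSeq start lies inside the gene as GENCODE annotates it, whose longest transcript begins farther upstream. They lie at chr7:127993868-127994117 (minus strand), chr1:173420354-173420570, chr11:59541319-59541567 and chr9:50554450-50554699. Capitals mark the core GAGGAAGT of the myeloid factor PU.1 and the element AANNGAAA of the interferon regulatory factors (IRF), on either strand.
Pycard: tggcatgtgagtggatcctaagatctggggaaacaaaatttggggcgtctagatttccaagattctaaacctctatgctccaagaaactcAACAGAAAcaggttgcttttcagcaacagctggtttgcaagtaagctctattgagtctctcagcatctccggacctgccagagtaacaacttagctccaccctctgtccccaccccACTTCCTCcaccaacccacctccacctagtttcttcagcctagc
Aim2: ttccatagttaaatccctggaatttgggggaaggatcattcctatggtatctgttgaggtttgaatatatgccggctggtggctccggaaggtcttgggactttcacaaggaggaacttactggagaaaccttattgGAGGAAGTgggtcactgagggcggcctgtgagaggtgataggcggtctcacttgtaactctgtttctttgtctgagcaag
Nlrp3: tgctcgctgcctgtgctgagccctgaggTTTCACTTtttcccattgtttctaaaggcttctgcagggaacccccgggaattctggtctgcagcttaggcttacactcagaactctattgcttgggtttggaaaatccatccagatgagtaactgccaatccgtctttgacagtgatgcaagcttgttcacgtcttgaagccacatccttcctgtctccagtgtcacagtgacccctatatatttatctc
Il18: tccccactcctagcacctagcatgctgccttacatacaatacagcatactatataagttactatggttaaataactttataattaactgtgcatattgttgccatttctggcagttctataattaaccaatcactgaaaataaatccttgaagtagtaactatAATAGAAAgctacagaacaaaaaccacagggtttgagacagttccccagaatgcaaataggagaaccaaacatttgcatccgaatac
RefSeq windows of 250 bases before a start were at hand for 9 of the 10 genes, in 11 windows, and not for Gsdmd. The PU.1 core was found for 2 genes, 44 bases before the Pycard start on the opposite strand and 113 bases before the Aim2 start, against 2.79% of 27025 genes with a window. The IRF element was found for 5 of the 9 genes (Pycard, Nlrp3, Casp4, Il1b and Il18), against 23.9% of genes, so that Pycard and Nlrp3, high in PS19, and the level gene Il18 hold it. The GAS element TTCNNNGAA was found for 0 of the 9 genes, against 8.13% of genes. Sites of different motifs do not overlap in the stretches shown. A match of letters is a description and shows no binding.

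Gsdmd (ENSMUSG00000022575, chromosome 15, 75862327 to 75867408), which encodes the pore-forming gasdermin D, had 58 reads in WT, against 128 in PS19 and 33 in PS19 Zbp1+-, or FPKM values of 1.41, 3.11 and 0.877. PS19 was the high library and PS19 Zbp1+- the lowest. The PS19 over WT ratio was 2.20 (1.60 to 3.06). PS19 Zbp1+- was 3.55-fold below PS19 (2.41 to 5.38) and 1.61-fold below WT (1.03 to 2.55).

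Gsdme (ENSMUSG00000029821, chromosome 6, 50188888 to 50263862, minus strand), whose product is a pore-forming protein that can turn apoptosis into lysis, did not share this order. It had 343, 347 and 291 reads (WT, PS19 and PS19 Zbp1+-), with FPKM values of 1.56, 1.58 and 1.44. The PS19 over WT ratio was 1.01 (0.867 to 1.18) and that of PS19 Zbp1+- over PS19 was 0.916 (0.781 to 1.07), so that counting error left no room for a 2-fold difference between these libraries. Its FPKM depends on the length used: the table counts 12742 bases of exon, while the principal transcript in GENCODE has 2502, on which the WT level would be 7.95. For Casp1 both lengths are 1497 bases. Ratios between libraries are not touched by this.

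Casp1 (ENSMUSG00000025888, chromosome 9, 5298517 to 5307265) had 47 reads in WT, against 25 in PS19 and 27 in PS19 Zbp1+-, or FPKM values of 1.82, 0.966 and 1.14. WT was the high library and both PS19 libraries lay together below it. The PS19 over WT ratio was 0.531 (0.313 to 0.880), the lowest of the 9 members with enough reads. That of PS19 Zbp1+- over WT was 0.626 (0.375 to 1.03), and that of PS19 Zbp1+- over PS19 was 1.18 (0.659 to 2.12). Casp4 (chromosome 9, 5308828 to 5336783), the neighbouring gene, encodes the caspase known in the mouse as caspase-11, which binds bacterial lipopolysaccharide and cuts gasdermin D directly. It had only 5, 17 and 9 reads (WT, PS19 and PS19 Zbp1+-). The PS19 over WT ratio of 3.39 had a wide interval (1.20 to 11.8).

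Il18 (ENSMUSG00000039217, chromosome 9, 50554827 to 50581840) had 234 reads in WT, against 237 in PS19 and 186 in PS19 Zbp1+-. The PS19 over WT ratio was 1.01 (0.840 to 1.22), and the ratio of PS19 Zbp1+- over PS19 was 0.857 (0.704 to 1.04). Il18 thus lay level between PS19 and WT, and within 2-fold between PS19 Zbp1+- and PS19. In both comparisons Pycard, Nlrp3, Aim2 and Gsdmd differed by more than 2-fold. Il1b (chromosome 2, 129364570 to 129371139, minus strand), the cytokine gene known to need induction, had 3, 16 and 1 reads (WT, PS19 and PS19 Zbp1+-). PS19 held the most, but with 19 reads or fewer in each pair of libraries no ratio is read from them. Il1bos, antisense to it, had 6, 3 and 11 reads and covers 1.31% of its exon bases.

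**Figure D2:**
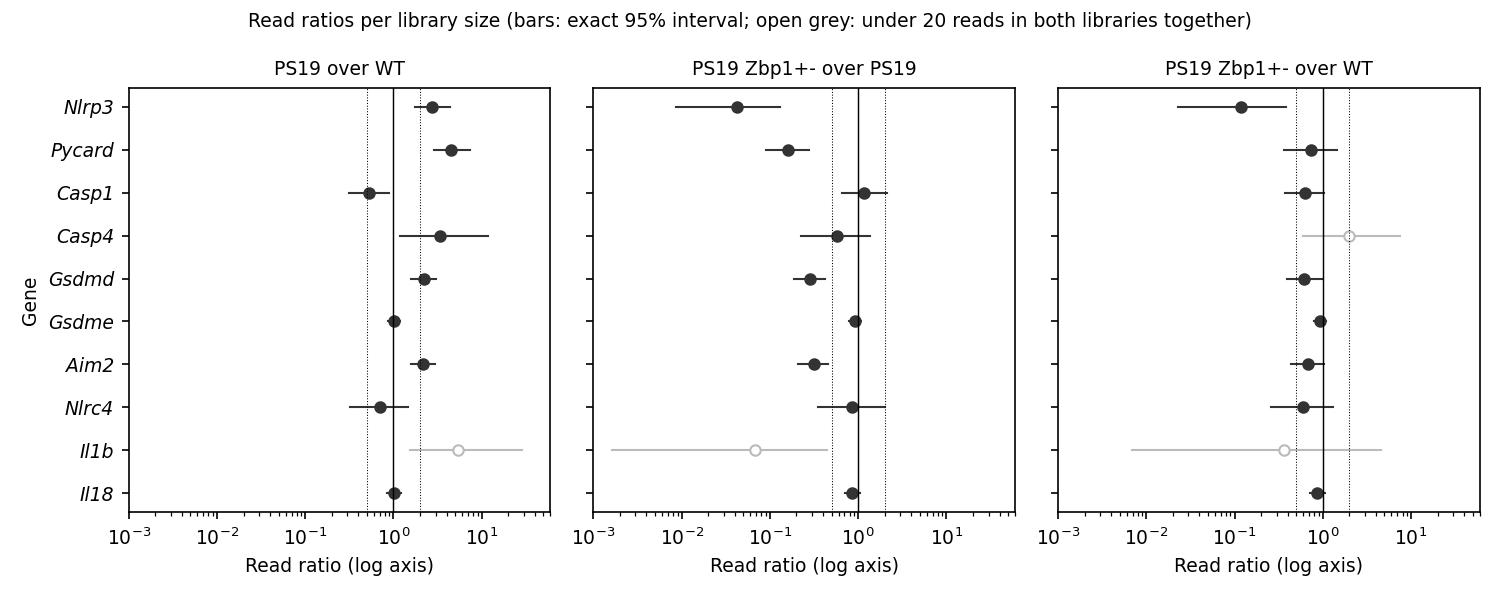
Read ratios per library size (log axis) of the 10 genes in the 3 comparisons; bars are exact 95% intervals for counting error, dotted lines mark 2-fold, and open grey points have fewer than 20 reads in both libraries together. Nlrp3, Pycard, Gsdmd and Aim2 lie right of 1 in PS19 over WT and left of it in PS19 Zbp1+- over PS19, and Casp1 lies left of 1 in PS19 over WT.

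Genes were counted as called where log2(FPKM + 1), a scale that understates changes of weak genes, differed by at least 1 between libraries. In PS19 against WT, 7 members entered, and 0 were called higher and 0 lower, against a background of 2.20% of 12703 protein-coding genes called higher and 0.291% called lower. Pycard came nearest with a difference of 0.95, followed by Gsdmd with 0.77, Aim2 with 0.65 and Nlrp3 with 0.58. On read ratios, a measure added after the values had been seen, 5 of 9 members (Nlrp3, Pycard, Casp4, Gsdmd and Aim2) were at least 2-fold higher in PS19, against a background of 6.02% of 14646 genes, and 0 were at least 2-fold lower (background 1.60%). In PS19 Zbp1+- against PS19, 3 of 7 members were called lower, Gsdmd with a difference of -1.13, Pycard with -1.06 and Nlrp3 with -1.003, against a background of 5.16% of 12772 genes, and 0 were called higher (2.0%). On read ratios 4 of 9 were at least 2-fold lower, Aim2 being the other gene, against 12.6% of 14525 genes, and 0 were at least 2-fold higher (4.24%). All 3 called genes and Aim2, 4 of the 7, reached an FPKM of 1 in PS19 alone, the library in which they were high, and so did 3 of the 7 (Nlrp3, Pycard and Aim2) against WT. These counts and the medians over members that entered are therefore descriptions of members selected in part by their PS19 level. PS19 enters both comparisons, so the opposite signs in them are not independent of each other.

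The median log2(FPKM + 1) difference over the 7 members that entered was 0.58 in PS19 against WT and -0.91 in PS19 Zbp1+- against PS19, while the medians over all genes tested were -0.03 and 0.04. Over all 10 members, without the filter on low values, the medians were 0.34 and -0.36. Between PS19 Zbp1+- and WT, 4 members entered, with 0 called in either direction (background 1.07% higher and 2.28% lower of 12436 genes) and a median of -0.28, against 0.01 over all genes. On read ratios Nlrp3 was the 1 member of 8 at least 2-fold lower, against 7.27% of 14352 genes, and 0 were at least 2-fold higher (3.50%). PS19 stood at least 2-fold above both other libraries in reads for Nlrp3, Pycard, Gsdmd and Aim2, 4 of the 9 members with enough reads in both comparisons with PS19, against 4.60% of 14395 genes. On the log2(FPKM + 1) scale this count was 0, against 1.74% of 12875 genes. The count on reads was added after the values had been seen, and its read minimum includes the PS19 reads of each pair. Nlrp3 and Pycard, with 3 and 16 reads in PS19 Zbp1+-, met the minimum in that pair only through PS19. Gsdmd and Aim2, with 33 and 37 reads there, did not need it. That count is therefore a description of genes selected in part by their PS19 level.

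The sum of microglia markers was highest in PS19, as Pycard, Nlrp3, Aim2 and Gsdmd were, while not every marker list or member shared that order. The 16 microglia markers summed to an FPKM of 207 in WT, against 738 in PS19 and 224 in PS19 Zbp1+-, 15 of them were higher in PS19 than in WT, and none was at 0 in any library. P2ry12, the exception, had FPKM values of 11.2, 10.1 and 8.66, and Tmem119 had 11.0, 12.4 and 10.2. In bulk RNA, fewer cells of a type and less RNA per cell cannot be told apart. Per 1000 FPKM of summed microglia markers, Pycard stood at an FPKM of 1.77 in WT, against 2.23 in PS19 and 1.19 in PS19 Zbp1+-, Nlrp3 at 1.93, 1.49 and 0.208, Gsdmd at 6.83, 4.22 and 3.91, and Aim2 at 4.79, 2.89 and 2.98. Of these 4 genes, only Pycard was highest in PS19 on that scale. On that scale Il18 was at 63.5, 18.0 and 50.8 and Casp1 at 8.78, 1.31 and 5.08, lowest in PS19, as were Gsdme (7.53, 2.14 and 6.43) and, on few reads, Nlrc4 (1.18, 0.232 and 0.655). Aim2 lay about level between PS19 and PS19 Zbp1+-. Casp4 (0.377, 0.359 and 0.683), also on few reads, lay about level between WT and PS19. The marker sum was 3.56-fold higher in PS19 than in WT, so a gene that rose less is lower on that scale by construction. C1qa and C1qb had the highest FPKM of the 16 markers in every library and weigh most in the sum. Which cells express the members was not measured here. The part of microglia in the differences was not tested.

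Blood-borne cells contribute to these genes in other settings, so their markers are given too. The 9 neutrophil markers summed to an FPKM of 1.71 in WT, against 6.96 in PS19 and 1.25 in PS19 Zbp1+-, with the defining genes Ly6g and Cxcr2 at 0 reads in all 3 libraries. Of the other markers, S100a9 had 7, 23 and 3 reads (WT, PS19 and PS19 Zbp1+-) and S100a8 had 5, 18 and 0. Retnlg had 1, 15 and 1, and Ngp had 5, 29 and 0, so that these were highest in PS19. The remaining markers were not: Mpo had 7, 0 and 15 reads, Camp had 0, 1 and 6, and Elane had 1, 0 and 0. The 10 border macrophage and monocyte markers summed to 3.84, 5.07 and 0.529, and 5 of them (Ccr2, Ly6c2, Ms4a7, Pf4 and Plac8) were at 0 in PS19 Zbp1+-. The 11 T, NK and B cell markers summed to 1.16, 2.11 and 0.520. Astrocyte markers, 8 genes, summed to 393, 1217 and 420, neuron markers, 9 genes, to 975, 842 and 1231, and endothelial markers, 7 genes, to 41.1, 44.1 and 58.8. The part of these cells in the differences was not tested.

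**Figure D3:**
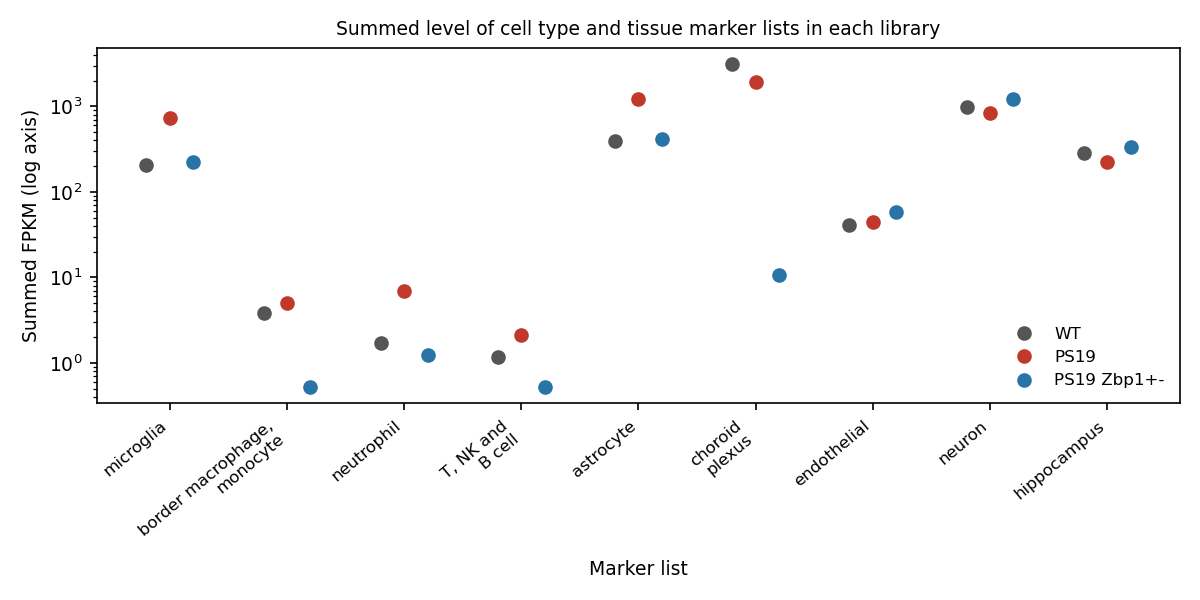
Summed FPKM (log axis) of each marker list in the WT, PS19 and PS19 Zbp1+- libraries, 1 point per library. Microglia markers reach 738 in PS19 against 207 in WT and 224 in PS19 Zbp1+-, and choroid plexus markers drop to 10.8 in PS19 Zbp1+-.

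Of the wider pathway, 47 genes in 4 lists were examined, and Irgb10 was not matched by name. Among 10 other sensors, 3 entered between PS19 and WT, and 1 was called higher (background 2.20%) and 0 lower. That gene was Ifi204, a DNA-binding relative of Aim2, with 10 reads in WT, against 153 in PS19 and 0 in PS19 Zbp1+-. PS19 was 15.3-fold above WT (8.08 to 32.5), and PS19 Zbp1+- was at least 46.7-fold lower than PS19 with 3 reads as the floor for its library, a bound that the exact 95% interval widens to 37.5-fold. The Naip genes encode the proteins that bind bacterial ligands for Nlrc4. Naip2 had 15, 112 and 17 reads, Naip5 had 22, 92 and 13, and Naip6 had 12, 59 and 9, so that each was high in PS19 alone while Nlrc4 was not. Naip1 had 5, 6 and 4 reads, too few to compare. The Naip genes are close copies of each other, so the split of reads among them is uncertain. The 3 sensors that entered, Ifi204, Naip2 and Naip5, reached an FPKM of 1 in PS19 alone and so were selected by their PS19 level.

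Among 12 genes of priming and activation, 10 entered between PS19 and WT, with 3 called higher (background 2.20%) and 0 lower (0.291%). These were Gbp2, with 59, 288 and 19 reads (WT, PS19 and PS19 Zbp1+-), Cd14, with 60, 186 and 47, and Gbp5, with 46, 227 and 37. Guanylate-binding proteins such as Gbp2 and Gbp5 are induced by interferon and act on bacterial membranes, and Cd14 is a co-receptor for lipopolysaccharide. These 3 genes and Txnip were called lower in PS19 Zbp1+- than in PS19, 4 of 10 against a background of 5.16%. Gbp5 entered both comparisons through PS19 alone, and Gbp2 entered that with PS19 Zbp1+- through PS19 alone. These counts are therefore in part a selection by PS19 level. Txnip, a thioredoxin-binding protein that can engage NLRP3, differed mainly in PS19 Zbp1+-, with FPKM values of 15.1 in WT, against 18.5 in PS19 and 2.67 in PS19 Zbp1+-. It was 5.64-fold below WT there (4.69 to 6.84). Nek7, a kinase that NLRP3 needs, differed less, at 7.09, 8.37 and 5.73, and P2rx7, the ATP-gated channel upstream of NLRP3, had 1.99, 3.90 and 1.88.

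Of the other caspases, gasdermins and membrane rupture genes, 5 of 9 entered between PS19 and WT and 0 were called (background 2.20% higher and 0.291% lower). Casp8, an apoptotic caspase that also links to inflammasomes, and Serpinb1a, an inhibitor of neutrophil proteases, were the 2 of 5 called lower in PS19 Zbp1+- than in PS19, with differences of -1.24 and -1.29, against a background of 5.16%. Of these 2 genes, Casp8 entered through PS19 alone. Ninj1, which completes membrane rupture after pore formation, had FPKM values of 14.1, 12.6 and 15.4 (WT, PS19 and PS19 Zbp1+-).

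In interleukin-1 family signalling, 7 of 16 genes entered between PS19 and WT, and 1 was called higher (background 2.20%) and 0 lower (0.291%). Il33, an alarmin made by astrocytes and oligodendrocytes in the brain, was that gene, with FPKM values of 20.5 in WT, against 45.9 in PS19 and 12.9 in PS19 Zbp1+-. Between PS19 Zbp1+- and PS19, 3 of 8 were called lower, against 5.16% of all genes: Il33 with -1.76, the interleukin-1 receptor gene Il1r1 with -1.05 and its signalling adaptor Myd88 with -1.03. Of these 3 genes, Myd88 entered this comparison through PS19 alone. Il18r1 had 0, 3 and 0 reads and Il18rap 3, 5 and 0, so that the receptor for the abundant Il18 was at or near the floor. Il18bp, the secreted inhibitor of interleukin-18, had 88, 132 and 111 reads.

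**Figure D4:**
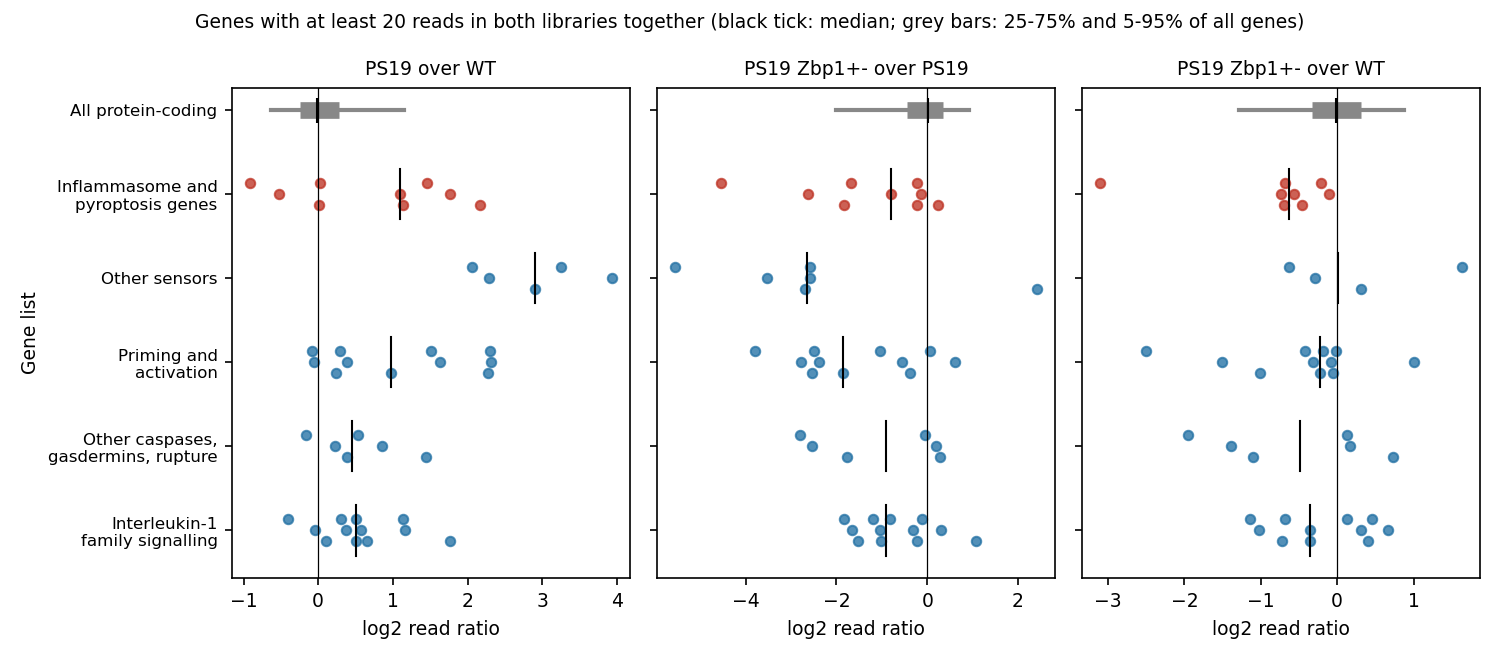
Log2 read ratio of each gene with at least 20 reads in both libraries together, by list, in the 3 comparisons; black ticks are medians, and grey bars span the 25th to 75th and the 5th to 95th percentile of all protein-coding genes. Reads below 3 were set to 3. The inflammasome and pyroptosis genes have a median of 1.10 in PS19 over WT, -0.79 in PS19 Zbp1+- over PS19 and -0.62 in PS19 Zbp1+- over WT.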

How the data were processed

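RNA-seq of hippocampus was deposited as 1 table for 3 libraries, 1 per genotype. Per the labels' protocols, TRIzol was used for extraction and an NEB Next Ultra kit for library preparation. Per the submitters' processing notes, Trim Galore 0.6.5, STAR 2.5.3a and featureCounts 2.0.4 were used, with the build mm39. Of 54409 gene IDs shared with GENCODE M21, 98.3% have the GRCm38 position of that release in the table, so positions are given as GRCm38. Strandedness is not given in the sources used here.

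The authors deposited FPKM values, a unit read from how the file is named and from the numbers in it. Each FPKM times gene length was a whole multiple of 1 step (tolerance 0.01 reads) in 100% of values above 0, which gave whole reads and an implied library size per library. Library depths are in the results, and every sample column was used.

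Differences were taken in log2(FPKM + 1), with a pseudocount of 1 FPKM, over protein-coding genes that reached an FPKM of 1 in at least 1 of the pair, and called at 1 log2 unit (2-fold). Read ratios per implied library size were given with exact (Clopper-Pearson) 95% intervals where both libraries held at least 20 reads together. Intervals and the floor of 3 reads cover only counting error: the reads carry no molecular identifiers and are not independent molecules. Samples were grouped by genotype label, and with 1 library per genotype no p-value was computed. The genes named were, by rule, the 10 members, Zbp1 and up to 4 called genes per pathway list; any further gene was picked once values were known. The members and lists were chosen with earlier results of these data known. Promoter windows came from RefSeq (GRCm38.p6), and the motifs were chosen with the sequences in view.

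Alternatives were a pseudocount of 0.1, no filter on low values, scaling by total reads, rescaling to an equal FPKM sum (TPM), a 1.5-fold threshold, genes of every biotype, and read minimums of 10 and 50. Counts on read ratios were added after the data had been seen. The procedure was tested on simulated data with known changes. These were placed only in well-expressed genes, with counting error as the only noise. The test therefore does not cover weak genes such as most of the members. The tools were matplotlib 3.10.9, scipy 1.17.1, pandas 2.3.3 and numpy 2.4.6 under Python 3.11.15.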

Additional observations from a re-analysis of the deposited data

How the results depend on the processing

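No paired analysis was possible because each genotype has 1 library. The count of members higher in PS19 than in WT, 0 as reported, was 4 with a pseudocount of 0.1, 1 after rescaling to TPM, 3 at a 1.5-fold threshold and 5 on read ratios, and the count of members with PS19 above both other libraries, also 0, took the same values of 4, 1, 3 and 5, the last with Il1b on 20 reads over all 3 libraries, and 4 where each pair with PS19 had to hold 20 reads. The members' median in PS19 against WT, 0.58, was 1.03 with a pseudocount of 0.1, 0.34 without a filter and 1.10 on read ratios. In PS19 Zbp1+- against PS19 the median of -0.91 was -1.54 with a pseudocount of 0.1 and -0.36 without a filter. Between PS19 Zbp1+- and WT, the median of -0.28 was -0.62 on read ratios, where 1 member was lower in place of 0, and 5 members in place of 8 had at least 50 reads. The pseudocount and filter act by construction on weak genes. Of 146 values of single members under an alternative, 109 stayed within the counting interval of the reported difference and 37 moved outside it. Reversal was scored only for called differences, all of them in PS19 Zbp1+- against PS19, and 0 reversed. Among uncalled differences 1 changed sign: Casp1 in PS19 Zbp1+- against PS19, to -0.02 after rescaling to TPM. The difference of Il18 between PS19 Zbp1+- and PS19, -0.21 as reported, was -0.38 with total reads and -0.47 with TPM. That of Gsdme, -0.08 as reported, was -0.19 and -0.25, so how level these 2 genes were depended on the scaling. TPM moved the median of all genes in that comparison from 0.04 to -0.21, and scaling by total reads moved it to -0.12. The members' median relative to all genes was -0.95 as reported, -0.86 after TPM and -0.88 after scaling by total reads.

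Over all genes, the 280 higher in PS19 than in WT became 541 with a pseudocount of 0.1, 806 at 1.5-fold, 514 over every biotype and 882 on read ratios, and the 37 lower became 101, 344, 176 and 235. In PS19 Zbp1+- against PS19 the 255 higher became 430, 1197, 528 and 616 in the same order, 147 with total reads and 119 with TPM, and the 659 lower became 1184, 1544, 1041 and 1837, and 1015 with TPM. Against WT, the 133 higher became 290, 834, 422 and 502, 78 with total reads and 76 with TPM, and the 283 lower became 543, 886, 588 and 1043. Depth limits Il1b, Casp4 and Nlrc4 most.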

Other observations

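Some genes of the wider pathway were highest in PS19 Zbp1+-, and they were chosen after their values had been seen. Nlrp6, a sensor gene known mainly from the intestine, had 12 reads in WT, against 7 in PS19 and 34 in PS19 Zbp1+-, a ratio of 3.09 over WT (exact 95% interval 1.56 to 6.55) and 5.31 over PS19 (2.32 to 14.2). Gsdma, a gasdermin gene known from skin, had 0, 0 and 13 reads in the same order. Trpm2, a cation channel opened by oxidative stress, had FPKM values of 2.74, 3.59 and 5.47. In that library the neutrophil precursor genes Mpo and Camp had 15 and 6 reads, against 7 and 0 in WT and 0 and 1 in PS19, and the B cell gene Cd79a had 12, against 6 and 1.

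Casp12, a caspase gene next to Casp1 and Casp4 on chromosome 9, had 21, 38 and 5 reads (WT, PS19 and PS19 Zbp1+-). Nlrp1b, a sensor gene, had 4, 38 and 3 reads, and PS19 was 9.48-fold above WT (3.41 to 36.6). Tlr4, the lipopolysaccharide receptor gene that primes inflammasomes, had 17, 85 and 15 reads, and PS19 was 4.99-fold above WT (2.94 to 8.96).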
